A study of Mus musculus with 8 samples.

Results

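The carnitine shuttle and the mitochondrial beta-oxidation pathway were followed through 10 genes in mouse acute myeloid leukaemia cells: Cpt1a, Slc25a20 and Cpt2 of the shuttle, the acyl-CoA dehydrogenases Acadvl, Acadl, Acadm and Acads, the trifunctional protein genes Hadha and Hadhb, and Etfdh. They were chosen by symbol for their place in the pathway, from a table of 27179 genes, and all 10 had enough counts to be tested. The cells carried MLL-AF9, a fusion oncogene, and (genotype labelled WT) had been taken from 1 terminally ill mouse and grown in culture with SCF, IL-3 and IL-6 before transfer, so that all libraries trace back to the same leukaemia. GFP marked them, from what the labels call a ubiquitin transporter, and luciferase was driven by the β-actin promoter. Male mice of 8 to 10 weeks received the cells by vein without preconditioning and so kept their own marrow. In both groups every mouse was given 5+3 chemotherapy (5 daily doses of cytarabine at 100 mg/kg, the first 3 of them together with doxorubicin at 3 mg/kg), and living GFP-positive marrow cells were sorted at the point of greatest response. The groups differed in diet. The standard diet (labelled AA, 5 libraries) held the usual amino acids, and the other diet (labelled BCAA, 3 libraries, read as BCAA-free from the series' title and design) lacked leucine, isoleucine and valine. A vehicle arm named in the protocol was not analysed here, so chemotherapy itself was not compared.

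Long-chain fatty acids cannot cross the inner mitochondrial membrane as CoA esters. Cpt1a, on the outer membrane, joins them to carnitine and is held back by malonyl-CoA, the translocase encoded by Slc25a20 carries the acylcarnitine inward in exchange for carnitine, and Cpt2 restores the CoA ester in the matrix. Each turn of beta-oxidation then opens with an acyl-CoA dehydrogenase matched to chain length, whose electrons reach ubiquinone through the electron transfer flavoprotein and Etfdh, and for long chains the trifunctional protein carries out the remaining steps. Fatty acid oxidation is known as a fuel of myeloid leukaemia cells and as a pathway under control of the PPAR nuclear receptors.

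The 250 bases before the transcription start that the RefSeq promoter table uses (GRCm38.p6, the assembly that mm10 names) are shown for the 3 genes with the largest differences between diets, Cpt1a, Slc25a20 and Acadvl, and for Hadhb, whose level differed least. They read 5′ to 3′ on the strand of the gene. For Cpt1a that start follows base 3323300, inside the RefSeq gene span that opens at 3322326, so its window is not upstream of the whole gene. For the other 9 genes the window adjoins the end of the span. Capitals mark matches, on either strand, to GGGCGG (a GC box), AGGTCA (the nuclear receptor half-site) and CCAAT.
Cpt1a, chr19:3323051-3323300, plus strand: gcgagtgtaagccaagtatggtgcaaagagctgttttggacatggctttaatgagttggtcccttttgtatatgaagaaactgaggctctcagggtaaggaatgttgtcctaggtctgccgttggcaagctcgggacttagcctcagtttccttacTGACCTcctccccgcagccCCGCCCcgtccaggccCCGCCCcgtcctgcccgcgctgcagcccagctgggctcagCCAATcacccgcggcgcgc
Slc25a20, chr9:108661886-108662135, plus strand: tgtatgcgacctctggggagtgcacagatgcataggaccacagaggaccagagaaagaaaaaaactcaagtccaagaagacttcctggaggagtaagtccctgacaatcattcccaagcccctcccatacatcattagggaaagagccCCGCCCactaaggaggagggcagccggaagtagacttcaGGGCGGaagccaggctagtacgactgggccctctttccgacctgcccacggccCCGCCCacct
Acadvl, chr11:70015429-70015678, minus strand: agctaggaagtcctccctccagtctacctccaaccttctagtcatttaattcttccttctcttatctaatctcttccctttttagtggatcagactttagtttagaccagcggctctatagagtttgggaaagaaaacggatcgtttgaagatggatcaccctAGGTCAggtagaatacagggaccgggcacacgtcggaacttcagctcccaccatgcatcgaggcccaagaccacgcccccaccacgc
Hadhb, chr5:30155003-30155252, plus strand: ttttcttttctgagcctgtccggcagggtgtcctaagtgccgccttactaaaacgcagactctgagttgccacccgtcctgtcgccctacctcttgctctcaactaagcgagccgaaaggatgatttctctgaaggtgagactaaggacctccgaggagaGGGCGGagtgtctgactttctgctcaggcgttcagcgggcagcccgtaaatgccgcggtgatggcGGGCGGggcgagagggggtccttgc

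Hadha and Hadhb lie head to head on chromosome 5 with 272 bases between their starts, so that 228 of the 250 upstream bases belong to both genes and the Hadhb sequence also shows, in reverse, most of the Hadha one. A GC box was found in 7 of the 10 windows (Cpt1a, Cpt2, Slc25a20, Acads, Acadl, Hadha and Hadhb) against 32.74% of 32851 upstream windows of the same length in the table. The only box of Hadha is also a box of Hadhb, so that site was counted for both genes. The half-site AGGTCA was found in Cpt1a, Acadm and Acadvl, and in 14.02% of all windows. CCAAT was found in Cpt1a and Etfdh, and in 33.85% of all windows. The PPAR element in the exact form AGGTCANAGGTCA, which contains that half-site at both ends, was in none of the 10 windows and in 0.03% of all. The ERR element TNAAGGTCA, which also ends in the half-site, the E-box CACGTG and the SREBP element TCACNCCAC were in none of the 10 either, against 1.14%, 6.02% and 1.05% of all windows. At these shares a motif can easily be missing from 10 windows, so their absence does not set the 10 genes apart. These are matches of letters, and no binding was measured.

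Between the diets, Cpt1a was higher in the BCAA-free group by 1.55-fold and was the only one of the 10 genes to pass the test (edgeR's quasi-likelihood test, Benjamini-Hochberg adjusted p under 0.05 over 13364 genes). By the same test 0.756% of all tested genes were called, 0.217% as higher. The other genes of the shuttle and the 4 chain-length dehydrogenases had values on the same side without passing, Hadha and Hadhb were level, and none was called lower. At an unadjusted p under 0.05 there were 4 of the 10, Cpt1a, Slc25a20, Acadvl and Acads, all higher, beside 13.5% of all tested genes in either direction and 6.21% higher. The log2 fold change was above 0 for 9 of the 10 (median 0.20), where 52.6% of all tested genes were positive and their median was 0.02. Levels are read counts scaled to the size of each library (CPM, with TMM factors), and the 10 genes had between 238 counts (Cpt2) and 9987 counts (Hadha) in a library. The sum of the 10 was 710 ± 30.4 CPM (SD, n = 5) on the standard diet and 830 ± 37.9 CPM (SD, n = 3) on the BCAA-free diet. Much of that difference was Cpt1a alone, with means of 115 and 179 CPM. Hadha, the largest term of the sum, was level at 238 and 237 CPM.

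**Figure D1:**
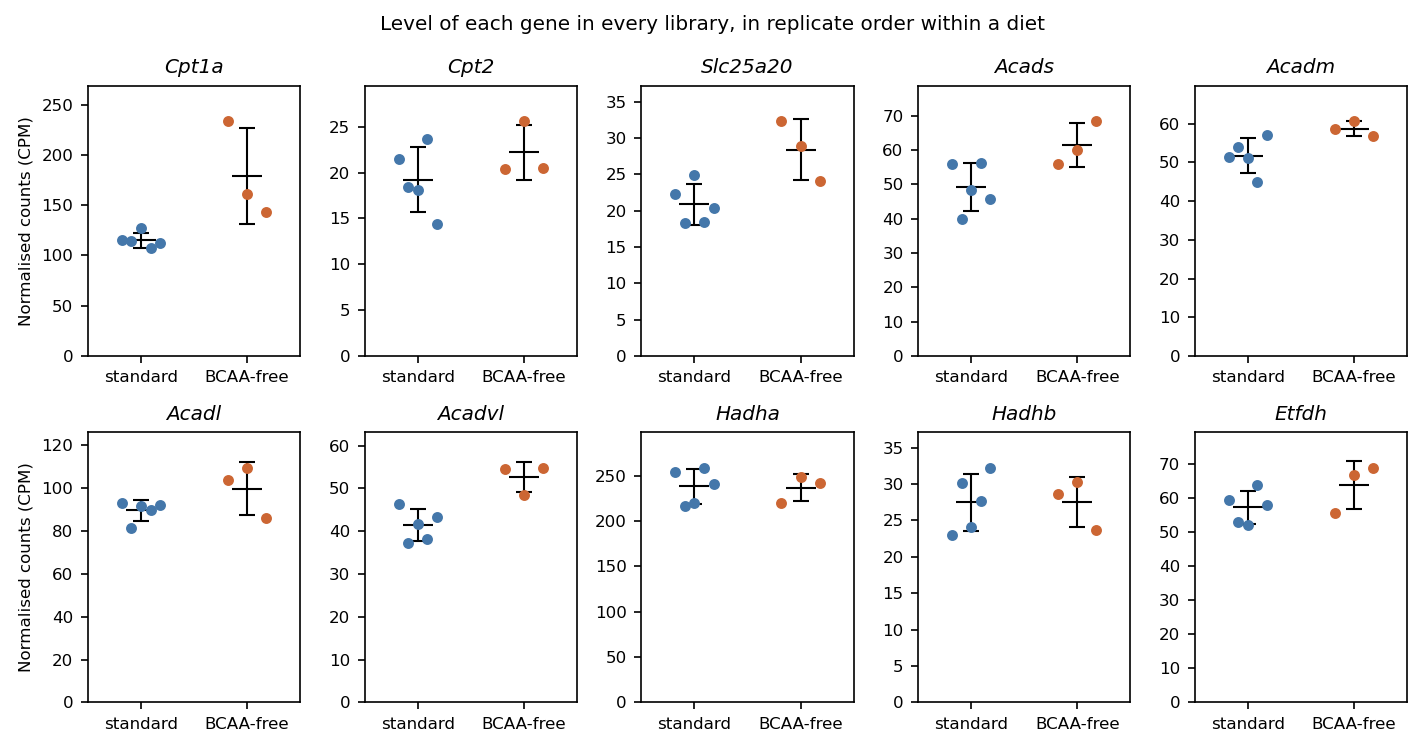
Level of each of the 10 genes in CPM (linear axes from 0) in the 5 standard-diet and 3 BCAA-free libraries, with 1 point per library in replicate order and mean ± SD in black. The 3 BCAA-free points lie above all 5 standard-diet points for Cpt1a and Acadvl and overlap them for the other 8 genes.

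In the shuttle, Cpt1a (gene 12894, chromosome 19 from 3322326 to 3385735, plus strand, GRCm38) was at 115, 115, 127, 107 and 112 CPM in standard-diet replicates 1 to 5 and at 234, 161 and 143 CPM in BCAA-free replicates 1 to 3. The standard-diet libraries sat close together, with a coefficient of variation of 6.46%, while the BCAA-free libraries varied by 26.7%, and replicate 1 stood well above the other two. The groups did not overlap, which holds for 4.17% of all tested genes with the BCAA-free group higher. The log2 fold change was 0.64 (SE 0.13, 95% interval 0.35 to 0.92, edgeR adjusted p = 0.0399). Without BCAA-free replicate 1 the log2 fold change was 0.40 and the gene was not called (edgeR adjusted p = 0.139), and it was also not called without BCAA-free replicate 2 or without standard-diet replicate 1, 2, 4 or 5. DESeq2 called it (adjusted p = 0.00214), limma-voom did not (0.0768).

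**Figure D2:**
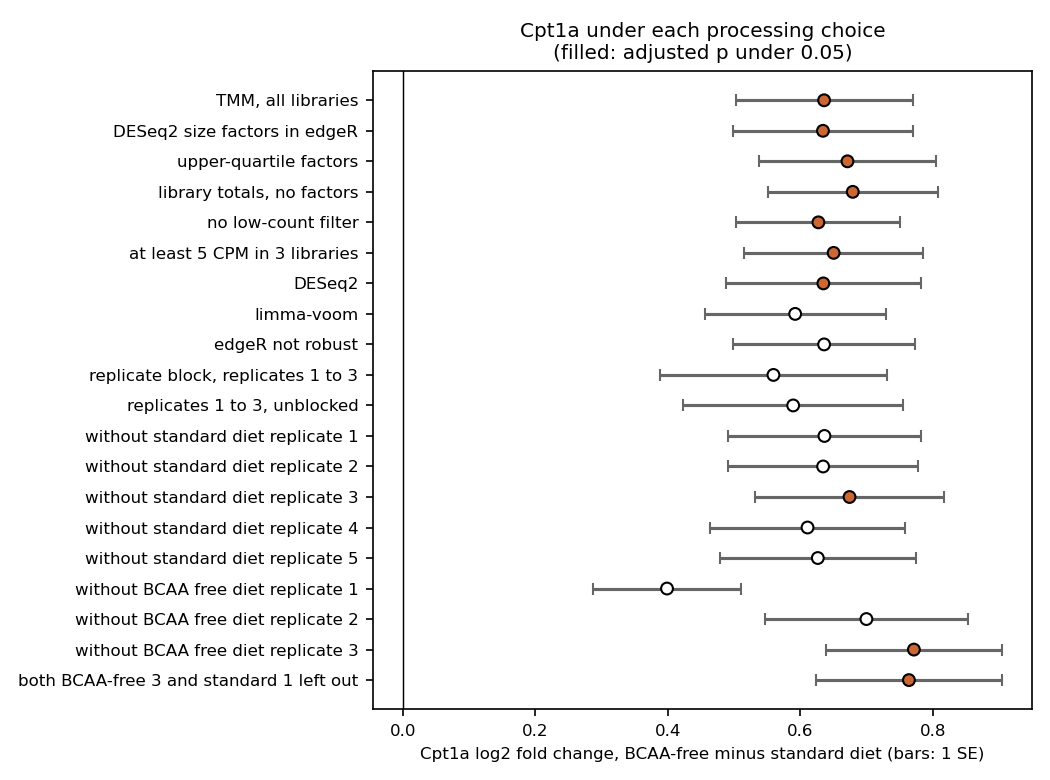
Log2 fold change of Cpt1a (BCAA-free minus standard diet, bars of 1 SE) in the fit reported, at the top, and under 19 other processing choices, with filled points where the adjusted p was under 0.05. All points lie above 0, between 0.40 and 0.77, and 9 of the 19 other choices kept the call.

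Slc25a20, the translocase (gene 57279, chromosome 9 from 108662136 to 108684642, plus strand), was at 22.3, 18.3, 24.9, 18.5 and 20.4 CPM on the standard diet. It was at 32.3, 28.9 and 24.1 CPM on the BCAA-free diet. The first 2 BCAA-free libraries lay above every standard-diet library and the third lay just below the highest of them. Its log2 fold change was 0.44 (SE 0.16, 95% interval 0.10 to 0.78), which did not pass over all genes (edgeR adjusted p = 0.243). The order of the BCAA-free libraries, replicate 1 highest and replicate 3 lowest, was that of Cpt1a. Over the 8 libraries, Slc25a20 was at place 8 for likeness to Cpt1a among the 9023 other genes that averaged 10 CPM or more, measured as the root mean square difference of standardized log2 CPM (0.418, where 0 is an identical pattern).

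Cpt2, which completes the shuttle on the matrix side (gene 12896, chromosome 4 from 107903982 to 107923589, minus strand), was at 21.5, 18.4, 18.1, 23.6 and 14.4 CPM on the standard diet and at 20.5, 25.6 and 20.6 CPM on the BCAA-free diet. The groups overlapped and the standard-diet libraries alone spanned the values of 2 of the 3 BCAA-free ones. Cpt2 had a log2 fold change of 0.21 (SE 0.18, 95% interval -0.17 to 0.58, edgeR adjusted p = 0.652). It was 0.084 without BCAA-free replicate 2 and 0.12 without standard-diet replicate 5.

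The 4 dehydrogenases that open the cycle take fatty acids of decreasing length, from Acadvl (very long) through Acadl (long) and Acadm (medium) to Acads (short). Acadvl (gene 11370, chromosome 11 from 70010183 to 70015428, minus strand) was at 46.5, 37.3, 41.7, 38.2 and 43.3 CPM on the standard diet and at 54.6, 48.5 and 54.8 CPM on the BCAA-free diet. It was the second of the 10 genes whose groups did not overlap, with a log2 fold change of 0.35 (SE 0.12, 95% interval 0.09 to 0.61), and it did not pass (edgeR adjusted p = 0.229). In GENCODE M21, 30.89% of its 38-base windows, the read length, also occur, on either strand, in annotated transcripts of the neighbouring gene Dvl2. Its count is therefore uncertain, by an amount that was not measured.

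Acads (gene 11409, chromosome 5 from 115110299 to 115119346, minus strand) was at 55.9, 40.0, 48.3, 56.3 and 45.6 CPM on the standard diet and at 55.9, 59.9 and 68.4 CPM on the BCAA-free diet. BCAA-free replicate 3 was the highest library here, unlike for Cpt1a and Slc25a20, and replicate 1 fell within the standard-diet range. Acads had a log2 fold change of 0.32 (SE 0.13, 95% interval 0.04 to 0.60, edgeR adjusted p = 0.314). Acadm (gene 11364, chromosome 3 from 153922353 to 153944643, minus strand) was between 45.0 and 57.1 CPM on the standard diet, with a mean of 51.7 ± 4.50 CPM (SD, n = 5), and at 58.6, 60.7 and 56.9 CPM on the BCAA-free diet. Its BCAA-free libraries were the tightest of any of the 10 genes (coefficient of variation 3.21%), yet the lowest of them lay under the highest standard-diet library. The log2 fold change was 0.18 (95% interval -0.06 to 0.43, edgeR adjusted p = 0.516). Acadl (gene 11363, chromosome 1 from 66830839 to 66863309, minus strand) was between 81.3 and 93.3 CPM on the standard diet and at 104, 110 and 86.0 CPM on the BCAA-free diet, where replicates 1 and 2 lay above and replicate 3 within the standard-diet range (log2 fold change 0.15, 95% interval -0.07 to 0.38, edgeR adjusted p = 0.566). Without BCAA-free replicate 2 the value for Acadl was 0.073, and without replicate 3 it was 0.25.

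Hadha encodes the subunit of the trifunctional protein with hydratase and hydroxyacyl-CoA dehydrogenase activity (gene 97212, chromosome 5 from 30119423 to 30154980, minus strand), and Hadhb the thiolase subunit (gene 231086, chromosome 5 from 30155253 to 30184593, plus strand). Hadha was at 254, 217, 220, 259 and 240 CPM on the standard diet and at 220, 248 and 242 CPM on the BCAA-free diet. All 3 BCAA-free values fell inside the standard-diet range, and the log2 fold change was -0.01 with a 95% interval of -0.22 to 0.21 (edgeR adjusted p = 0.985). Hadhb was at 23.0, 30.2, 24.1, 27.7 and 32.2 CPM on the standard diet and at 28.6, 30.3 and 23.7 CPM on the BCAA-free diet. Its log2 fold change was 0.00 with a 95% interval of -0.33 to 0.33 (edgeR adjusted p = 0.996). These intervals leave room for differences in either direction of up to those sizes.

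The 2 subunits differed in level although they share the upstream sequence printed above. Per length (RPKM, the CPM divided by the kilobases of the principal GENCODE transcript), Hadha was at 59.3 ± 4.78 RPKM (SD, n = 5) and Hadhb at 13.4 ± 1.90 RPKM on the standard diet, a ratio between 3.66 and 5.63 over the 8 libraries. Of the 38-base windows of Hadhb, 21.78% also occur in other annotated transcripts, 18.99% in the processed pseudogene Gm13910, against 0.51% for Hadha. How reads that map to several places were counted is not given in the sources used here, and its part in the ratio was not tested. Etfdh, the last carrier before ubiquinone (gene 66841, chromosome 3 from 79603788 to 79628767, minus strand), was between 52.3 and 63.8 CPM on the standard diet and at 55.7, 66.7 and 69.0 CPM on the BCAA-free diet. BCAA-free replicates 2 and 3 lay above the standard-diet range and replicate 1 within it (log2 fold change 0.16, 95% interval -0.09 to 0.41, edgeR adjusted p = 0.602). For Etfdh it was 0.24 without BCAA-free replicate 1 and 0.092 without replicate 3.

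**Figure D3:**
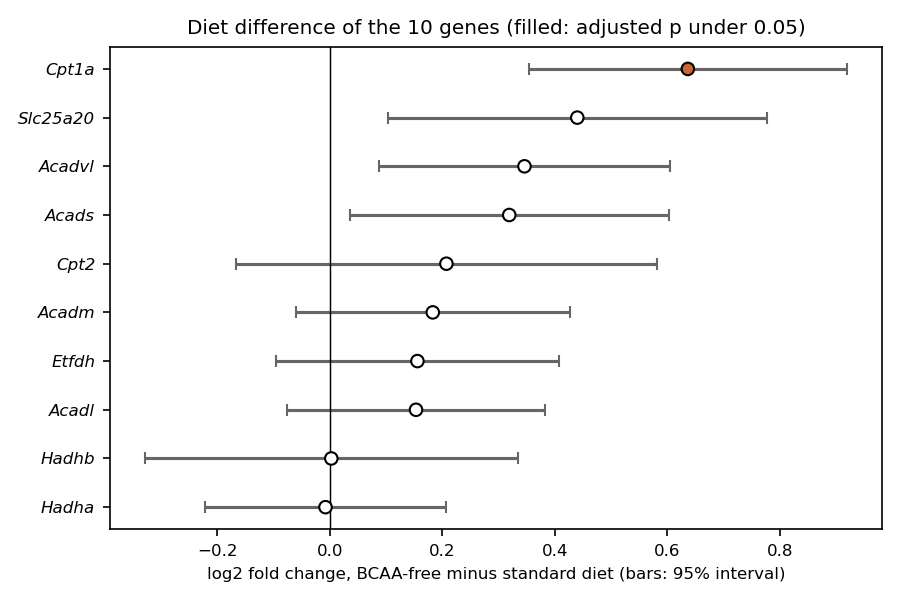
Log2 fold change of the 10 genes (BCAA-free minus standard diet) with 95% intervals, ordered by size, with a filled point where the adjusted p was under 0.05. Cpt1a at 0.64 is the only filled point, the intervals of Slc25a20, Acadvl and Acads lie above 0 before adjustment over all genes, and Hadha and Hadhb lie at 0.

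On the standard diet the order of the levels per length was Hadha at 59.3 RPKM, Acadl at 46.8 ± 2.53 RPKM (SD, n = 5), then Cpt1a at 26.7 ± 1.72, Acads at 26.3 ± 3.72, Acadm at 25.3 ± 2.20 and Etfdh at 24.1 ± 2.01 RPKM. Those last 4 neighbours lay within each other's spread. Acadvl followed at 19.1 ± 1.73 RPKM, then Hadhb at 13.4 ± 1.90 and Slc25a20 at 11.7 ± 1.56 RPKM, which overlapped in spread, and Cpt2 was lowest at 8.10 ± 1.49 RPKM. On the BCAA-free diet Cpt1a was at 41.5 ± 11.1 RPKM (SD, n = 3), behind Hadha and Acadl (52.1 ± 6.39 RPKM), and Slc25a20 at 15.9 ± 2.33 RPKM lay above Hadhb at 13.4 ± 1.68 RPKM. These lengths are those of 1 transcript a gene, and a gene read mainly from another transcript would have another value.

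Across libraries the 10 genes did not share 1 pattern. A BCAA-free library was the highest of the 8 for 8 of the 10 genes: replicate 1 for 2 of them, replicate 2 for 3 and replicate 3 for 3. Hadha was highest in standard-diet replicate 4 and Hadhb in standard-diet replicate 5. Standard-diet replicate 2 was the lowest library for 5 genes (Slc25a20, Acads, Acadl, Acadvl and Hadha), and no BCAA-free library was the lowest for any. The same counts were not made over all tested genes, so they do not set the 10 genes apart. The 5 genes most like Cpt1a over the 8 libraries by the measure used above were Cdc40, Rassf5, Zc3h12a, Psrc1 and Pop1, with root mean square differences from 0.185 to 0.401. None of these 5 passed the diet test in edgeR (adjusted p from 0.0745 for Psrc1 to 0.414 for Cdc40). After Slc25a20, the members nearest to Cpt1a were Acadvl at place 153 and Acadl at place 381, and Hadha was at place 6865.

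The rest of the pathway was followed in 10 further lists of 101 genes, of which 89 were tested. None was called by edgeR, and limma-voom called none. At an unadjusted p under 0.05 there were 12 of the 89, 9 higher and 3 lower, beside 13.5% of all tested genes in either direction and 6.21% higher. DESeq2 called Fabp4 alone. The median log2 fold change of the 89 was 0.02, with 46 positive and 43 negative.

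Among 15 other enzymes of mitochondrial beta-oxidation and its electron carriers, all tested, 10 were positive (median 0.05), none was called by edgeR or DESeq2, and 3 had an unadjusted p under 0.05, all higher, beside the 13.5% of all tested genes in either direction and 6.21% higher. These were Eci2, Acaa2 and Hadh (the last named after its values were seen), and in all 3 the groups did not overlap, as in 8.84% of all tested genes in either direction. Eci2, an enoyl-CoA isomerase for unsaturated chains, was at 61.0, 48.9, 51.8, 49.5 and 46.7 CPM on the standard diet and at 61.4, 75.5 and 62.5 CPM on the BCAA-free diet (log2 fold change 0.36, SE 0.12, edgeR adjusted p = 0.207). Acaa2, the thiolase that ends the cycle for shorter chains, was at 61.1 ± 7.54 CPM (SD, n = 5) and 76.6 ± 2.99 CPM (SD, n = 3), with a log2 fold change of 0.33 (edgeR adjusted p = 0.255). Hadh, the dehydrogenase for shorter chains, was at 51.0 ± 6.14 and 63.5 ± 4.55 CPM (log2 fold change 0.32, edgeR adjusted p = 0.290). In the list of 16 mitochondrial matrix and import genes set beside the pathway, 9 were positive and 7 negative, from -0.11 (Tomm20) to 0.19 (Idh2), with a median of 0.01, none called and none at an unadjusted p under 0.05. The leading pair there was Idh2 (log2 fold change 0.19, edgeR adjusted p = 0.503) and Mdh2 (0.18, 0.506), enzymes of the citric acid cycle and its neighbourhood.

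Acyl-CoA synthetases activate fatty acids before the shuttle. Of 7 tested acyl-CoA synthetase and carnitine supply genes, 6 were negative (median -0.16) and none was called. Acsl3, a synthetase of lipid droplets, was at 28.2, 31.2, 31.9, 27.3 and 25.0 CPM on the standard diet and at 27.8, 12.6 and 15.4 CPM on the BCAA-free diet, so that replicate 1 lay with the standard diet and the others well below it (log2 fold change -0.64, SE 0.21, edgeR adjusted p = 0.201, and 0.0257 without BCAA-free replicate 1). Acsl4, which prefers arachidonic acid, was at 75.3 ± 11.1 CPM (SD, n = 5) and 56.3 ± 10.5 CPM (SD, n = 3), with a log2 fold change of -0.42 (edgeR adjusted p = 0.211). Bbox1, an enzyme of carnitine synthesis, had 0 counts in all 8 libraries, where 3 counts in the smallest library would be 0.202 CPM. Tmlhe, another, was also listed at 0, but no model of it was matched in the chromosome annotation used here, so that its 0 sets no limit on its level. In the uptake and lipolysis list (9 tested, 4 positive), the fatty acid transporter Cd36 was low, at 0.484 to 1.68 CPM on the standard diet and at 2.62, 3.14 and 2.26 CPM on the BCAA-free diet (log2 fold change 1.32, SE 0.50, edgeR adjusted p = 0.271). Slc27a4, another transporter, was at 23.5 ± 2.83 and 29.7 ± 3.74 CPM (edgeR adjusted p = 0.341).

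The other carnitine acyltransferases showed no called difference. Cpt1c, the brain-type relative of Cpt1a, was near the limit of detection (0.913 ± 0.256 and 0.476 ± 0.135 CPM, edgeR adjusted p = 0.591), and Crat, for short acyl groups, was at 43.0 ± 2.88 and 40.6 ± 5.76 CPM (edgeR adjusted p = 0.838). Of the genes that set malonyl-CoA, the inhibitor of Cpt1a, Acaca, the acetyl-CoA carboxylase that makes it, was at 92.1, 101, 87.2, 83.8 and 83.9 CPM on the standard diet and at 83.4, 81.5 and 71.1 CPM on the BCAA-free diet. These groups did not overlap, but the difference did not pass (log2 fold change -0.19, SE 0.11, edgeR adjusted p = 0.470). Prkab2, a subunit of AMP kinase, was at 11.9 ± 2.59 and 9.46 ± 0.349 CPM (edgeR adjusted p = 0.528), and 6 of the 8 tested genes of that list were negative (median -0.07). Peroxisomal beta-oxidation had 7 negative genes of 10 (median -0.08). Its bifunctional enzyme Ehhadh was low, at 1.96 ± 0.421 and 3.28 ± 0.959 CPM (log2 fold change 0.74, edgeR adjusted p = 0.433). Among 6 thioesterases, which release free fatty acids, 3 were positive and 3 negative, with Acot9 at -0.28 and Acot8 at 0.30 (edgeR adjusted p = 0.318 and 0.448).

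**Figure D4:**
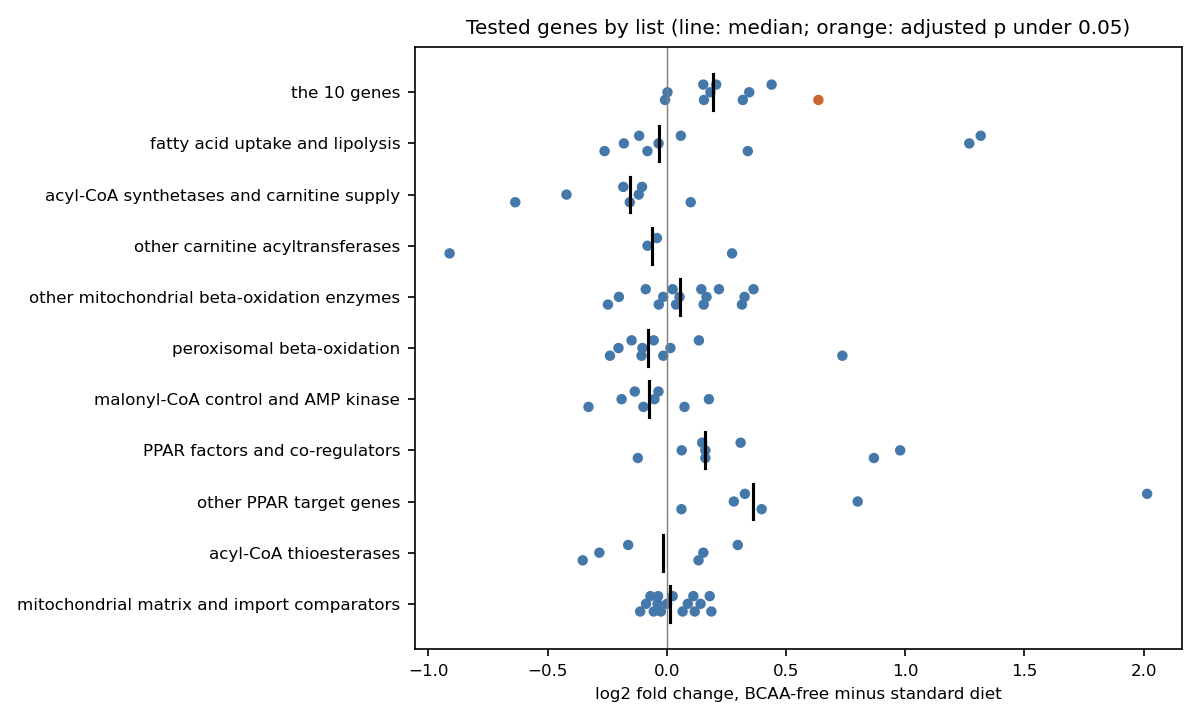
Log2 fold change (BCAA-free minus standard diet) of the tested genes of the 10 genes' own list and of 10 further lists of lipid and mitochondrial genes, with 1 point per gene and a line at each median. Cpt1a is the single gene with an adjusted p under 0.05, and the medians run from -0.16 for acyl-CoA synthetases and carnitine supply to 0.36 for the other PPAR target genes.

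The PPAR factor Ppara and the co-activator Ppargc1a were scarce. Ppara had between 0 and 3 counts in a library and Ppargc1a between 0 and 10, and neither was tested. Of 8 tested factors and co-regulators 7 were positive and none was called. Nrip1, a co-repressor, was at 1.39 ± 0.940 and 2.75 ± 1.38 CPM (edgeR adjusted p = 0.503). All 6 tested genes of a list of other PPAR targets were positive, with a median of 0.36, and none passed in edgeR. Plin2, which coats lipid droplets, was at 98.0, 93.6, 109, 113 and 106 CPM on the standard diet and at 120, 130 and 161 CPM on the BCAA-free diet (log2 fold change 0.40, SE 0.11, edgeR adjusted p = 0.123). Its groups did not overlap, and BCAA-free replicate 3, the lowest of its group for Cpt1a, was the highest for Plin2. Fabp4, a lipid chaperone of fat cells, macrophages and capillaries, was low in every library, at 0.942, 0.567, 0.953, 3.30 and 0.847 CPM on the standard diet and at 6.44, 7.21 and 2.32 CPM on the BCAA-free diet (log2 fold change 2.02, SE 0.54, edgeR adjusted p = 0.0927, DESeq2 adjusted p = 0.0141). Acot1, named after its values were seen, was at 6.79 ± 1.79 and 11.9 ± 4.35 CPM (edgeR adjusted p = 0.208). Pdk4, a widely used PPAR readout, had at most 5 counts in a library.

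The libraries held between 14851240 and 38966911 counts, and totals did not separate the diets (two-sided exact permutation p = 0.857, smallest possible 0.0357). Markers of the leukaemia were present in every library, Hoxa9 at 175 ± 15.3 and 165 ± 24.6 CPM and Meis1 at 128 ± 11.2 and 120 ± 7.55 CPM on the standard and BCAA-free diets, and the 9 leukaemia and myeloid markers summed to 8967 to 11600 CPM and 7381 to 8587 CPM, which did not overlap (two-sided exact permutation p = 0.0357, adjusted 0.131 over 11 measures). Sums of B cell and of stromal markers did not overlap between the diets either. The 6 B cell markers summed to 7.90 to 15.9 CPM on the standard diet and to 37.9, 107 and 26.5 CPM in BCAA-free replicates 1 to 3, with 3 markers called higher. The 6 stromal and endothelial markers summed to 2.59 to 10.4 CPM on the standard diet and to 46.3, 24.3 and 15.9 CPM in BCAA-free replicates 1 to 3, the order of Cpt1a in those libraries, with 1 marker called higher, Cxcl12 (5.21 ± 2.25 and 23.8 ± 13.8 CPM). Cxcl12 made up most of the stromal sum, and only 3 of the 6 markers had enough counts to be tested. Col1a1, not tested, was highest in standard-diet replicate 1, with 103 counts against 2, 9 and 8 in BCAA-free replicates 1 to 3. The B cell and stromal sums have the same p values as the leukaemia sum. The 8 macrophage markers summed to 276 to 391 CPM and 221 to 289 CPM, with Cd163 called higher at 3.86 ± 1.95 and 12.3 ± 4.75 CPM. The fat cell markers Cidec and Lep had 0 counts in all libraries, and the 5 adipocyte markers summed to at most 4.16 CPM. The sums of neutrophil, T and NK cell, erythroid, megakaryocyte and muscle markers overlapped between the diets. The part of these cells in the values of Cpt1a, Fabp4 and the other genes was not tested, and in such bulk samples a change in the share of a cell type and a change in RNA per cell cannot be told apart.

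**Figure D5:**
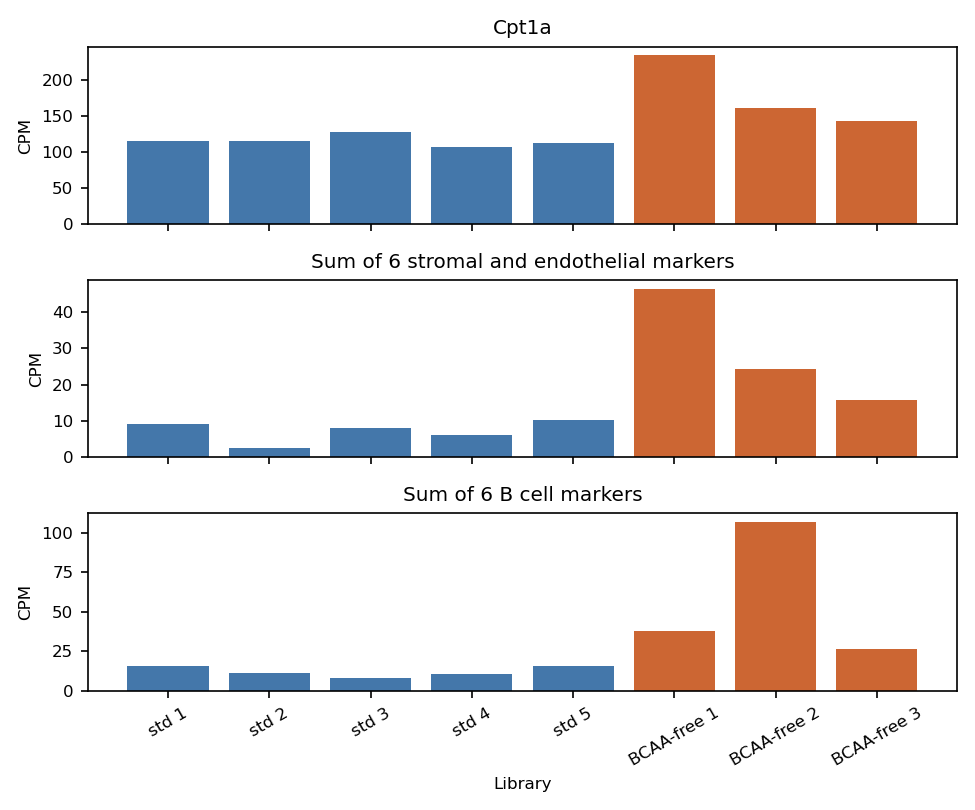
Cpt1a level and the summed levels of 6 stromal and endothelial and 6 B cell markers in each library, all in CPM on linear axes from 0, with standard-diet libraries in blue and BCAA-free libraries in orange. All 3 quantities are higher in the 3 BCAA-free libraries, with replicate 1 highest for Cpt1a (234 CPM) and the stromal sum (46.3 CPM) and replicate 2 for the B cell sum (107 CPM). Cxcl12 makes up most of the stromal sum. Other marker sums are not drawn, among them the leukaemia and myeloid sum, which was lower in all 3 BCAA-free libraries without overlap.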

How the data were processed

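RNA was polyadenylated RNA of sorted living GFP-positive cells, read as pairs of 38 bases after Kapa mRNA HyperPrep, per the labels' protocols. The authors deposited 1 table of raw counts per Entrez gene for 8 libraries, without normalization. The submitters' processing notes list mm10, featureCounts and Cell Ranger without versions. The sources used here do not give the aligner, the strand setting or how multi-mapping reads were counted. Symbols came from RefSeq GRCm38.p6, which matched 25275 of 27179 genes, and the other 1904 (1.71% to 4.43% of a library's counts) stayed in the tests. Groups came from the sample titles. The labels call the libraries biological replicates and do not say how mice map to them, so p-values measure the spread between these libraries.

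All genes were tested with edgeR 4.0.16 in R 4.3.3 (robust quasi-likelihood, TMM, default filter with minimum count 10 and minimum total 15, diet as the only term, Benjamini-Hochberg adjustment, threshold 0.05). Standard errors are log2 fold changes divided by the root of F. DESeq2 1.42.0, limma 3.58.1 (voom), other scalings and filters, and leaving out libraries were alternatives. Marker sums use CPM of unscaled totals and exact permutation (scipy 1.17.1). No library repeated another of its group (chi-square of their counts over its degrees of freedom 20.3 to 66.0). The procedure was tested on simulated data of 13364 genes. It recovered 19 of 67 planted 1.5-fold changes, 48 of 67 planted 2-fold and 53 of 66 planted 4-fold changes. Of its 124 calls 4 were false. A gene that was not called may therefore still differ by such an amount. The 10 genes and the lists were chosen with earlier results of these data known. Genes named beyond the 10 were the called genes of each list or else the 2 with the smallest p, and the 5 most like Cpt1a; some genes the rule named are not reported here. RPKM uses the longest principal GENCODE M21 transcript.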

Additional observations from a re-analysis of the deposited data

Results flagged for a closer look

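Of 32 genes checked for a library far from the others of its group in the 5 standard-diet libraries, 1 was found. Fabp4 was at 3.30 CPM in standard-diet replicate 4 and between 0.567 and 0.953 CPM in the other 4, a gap of 0.859 of the range, above Dixon's critical value of 0.71. Chance gives such a gap in about 1 in 20 groups. That library was the standard-diet one nearest to the BCAA-free group, so leaving it out widens the difference by construction. Over the 8 fits that each leave out 1 library, the log2 fold change of Fabp4 ran from 1.72 (edgeR adjusted p = 0.314, without BCAA-free replicate 2) to 2.66 (0.0246, without that library). It also passed without BCAA-free replicate 3 (0.0420) and in none of the other 6.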

How the results depend on the processing

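The direction of Cpt1a was the same under all 19 alternatives, and its call was lost in 10 of them. Its log2 fold change was 0.59 in limma-voom, 0.64 in edgeR without robust estimation (adjusted p = 0.0555) and 0.59 in replicates 1 to 3 alone (0.234). With the replicate number as a replicate block in those 6 libraries it was 0.56 (adjusted p = 0.486), where no gene was called at all, higher or lower (0 and 0), with 904 at an unadjusted p under 0.05, against 3 and 16 without the block. Same-numbered libraries did not deviate together (correlations -0.081, -0.052 and -0.298), so the numbers were not taken as pairs. Leaving out single libraries gave Cpt1a from 0.40 to 0.77, 0 or 1 of the 10 genes called higher, 3 to 78 genes called higher and 29 to 73 lower over the whole table (29 and 72 with all libraries), and 0 or 1 further pathway gene called in each direction. Over the whole table, the genes called higher and lower were 69 and 168 with no low-count filter, 130 and 248 in DESeq2 and 15 and 49 in limma-voom, and 45 were higher without BCAA-free replicate 3 and standard-diet replicate 1. The count of the 10 genes called higher was 0 in limma-voom, in edgeR without robust estimation and in replicates 1 to 3 with or without the block. It was 1 for the further pathway genes with no filter and in DESeq2 (Fabp4, log2 fold change 2.00 and 2.02). The log2 fold change of Hadha, -0.007 in the reported fit, turned to 0.027 with upper-quartile factors, 0.039 with library totals alone, 0.0062 with at least 5 CPM in 3 libraries, 0.042 with the replicate block and 0.040 in the same 6 libraries without it. That of Hadhb, 0.003, turned to -0.0056 with no filter. Over the fits that leave out 1 library, Hadha ranged from -0.051 to 0.043, Hadhb from -0.082 to 0.0995 and Crat from -0.20 to 0.0024, so that their signs are not settled. The cause of these changes was not tested.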
